A study of Drosophila melanogaster with 12 samples.

Results

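Entry into S phase and into division is driven by cyclin-dependent kinases (Cdks), which are active only when bound to a cyclin. Inhibitory phosphates on the kinase are removed by Cdc25 phosphatases. In the Drosophila ovary this machinery serves the divisions of germline stem cells and cysts, the endocycles of nurse cells and follicle cells, and the meiotic divisions of the oocyte. The 9 genes described here are the cyclin genes CycA, CycB, CycB3, CycD and CycE, the kinase genes Cdk1 and Cdk2, and the Cdc25 phosphatase genes stg (string) and twe (twine). They were taken by symbol, and all 9 were found among the 17768 genes of the count table.

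The RNA libraries compare 3 ovary samples carrying UAS-Sfmbt RNAi (line TRiP.HMS00473, called RNAi-1) with 3 carrying UAS-mCherry RNAi, a hairpin against a protein that flies do not make. Both hairpins were driven by nanos-Gal4, which is active in the germline, so follicle cells and other somatic cells of the same ovaries were not targeted. Ovaries came from females 2 days after eclosion, and the labels call the replicates biological. Sfmbt is a Polycomb group protein that forms the complex PhoRC with the DNA-binding protein Pho. ChIP-seq libraries, 2 for each kind, used an antibody to Pho in yw ovaries, and an antibody to GFP in ovaries with a GFP-Sfmbt knock-in allele and in untagged Oregon-R ovaries. RNA totals were 34057506 to 51297961 counted fragments per library, and each of the 9 genes had at least 2082 fragments in every library. Sfmbt itself had 36.7 to 43.8 CPM (fragments scaled to a common library size) in Sfmbt RNAi libraries, against 122 to 146 CPM in mCherry RNAi libraries. Which columns of the table hold which group was read from column letters, as described with the processing.

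Of the 9 genes 6 fell in Sfmbt RNAi ovaries and 0 rose. CycE and CycB3 were at 51.8% and 52.4% of their mCherry RNAi levels, twe at 54.2%, Cdk2 at 69.5%, stg at 72.9% and Cdk1 at 81.9%. CycA, CycB and CycD did not pass the test. A gene was called where its p from the quasi-likelihood test of edgeR, adjusted by Benjamini-Hochberg over the 9667 genes left by a filter on low counts, was under 0.05; all 9 genes passed that filter. Of all tested genes 34.7% were called, 19.4% lower and 15.2% higher. The median log2 fold change was −0.46 over the 9 genes and −0.04 over all tested genes. No gene of the 9 was higher at an unadjusted p of 0.05 either, or with DESeq2. In CPM, all 3 Sfmbt RNAi libraries lay below all 3 mCherry RNAi libraries in 8 of the 9 genes. Such a separation was seen in 50.3% of tested genes in either direction and in 27.6% downward. It depended on the scaling: in TPM, another scale given below, the downward separation held for CycE and CycB3 only. When 1 library was left out, CycE, CycB3, Cdk2 and twe were called in all 6 fits. The number called was then 4 without Sfmbt RNAi replicate 1 or 2 or mCherry RNAi replicate 1, 5 without mCherry RNAi replicate 2 or 3, and 7 without Sfmbt RNAi replicate 3.

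**Figure D1:**
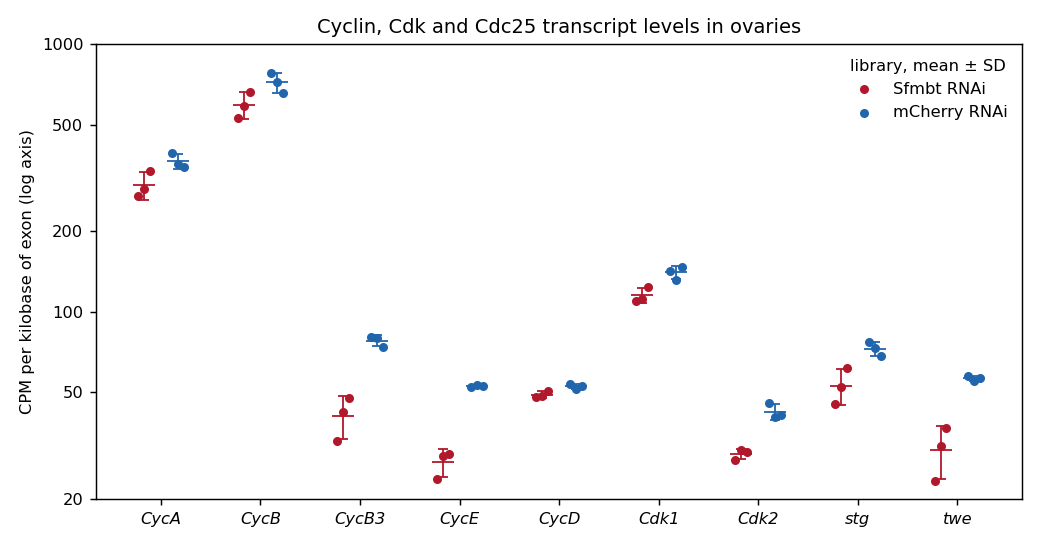
Level of each gene in every RNA library, in CPM per kilobase of exon on a log axis, with Sfmbt RNAi libraries to the left of mCherry RNAi libraries and bars for the mean ± SD (n = 3 each). CycB stands highest in both groups, and the CycE, CycB3 and twe points of Sfmbt RNAi lie well below those of mCherry RNAi.

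Cyclin E is the partner of Cdk2 that starts S phase, in mitotic cycles and in endocycles alike. CycE (FBgn0010382, 2L:15727581-15748150, minus strand) had 119, 146 and 149 CPM in the Sfmbt RNAi libraries of replicates 1 to 3, against 265, 268 and 266 CPM in mCherry RNAi libraries. The groups stood far apart: the highest Sfmbt RNAi library was 116 CPM below the lowest mCherry RNAi library. CycE had the smallest p of the 9 genes (log2 fold change −0.95 ± 0.10 SE, adjusted p by edgeR of 0.000656). The mCherry RNAi libraries were nearly equal for this gene, with a coefficient of variation of 0.580%, against 11.8% in Sfmbt RNAi.

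Cdk2, the kinase that cyclin E activates, is encoded at 3R:20735623-20738414 on the plus strand (FBgn0004107). It had 64.4, 69.8 and 68.8 CPM in Sfmbt RNAi libraries, against 104.8, 92.8 and 94.7 CPM in mCherry RNAi libraries. All Sfmbt RNAi values lay close together and 22.9 CPM or more below every mCherry RNAi value (log2 fold change −0.52 ± 0.07 SE, adjusted p by edgeR of 0.00258). The gene CG17267 on the opposite strand covers 43.9% of the exon bases of Cdk2. The fragments were counted by strand, and CG17267 had at most 1 fragment in any library.

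Cyclin D works with Cdk4 in growth and in the passage from G1. CycD (FBgn0010315, X:15906822-15909676, minus strand) had 118, 119 and 124 CPM in Sfmbt RNAi libraries, against 132, 127 and 129 CPM in mCherry RNAi libraries. Its groups did not overlap, by 2.33 CPM. The difference did not pass the test, and its direction depended on the scaling (log2 fold change −0.10 ± 0.06 SE with an adjusted p by edgeR of 0.231, and 0.13 ± 0.09 SE when libraries were scaled by their totals). Cdk4, named here for its role, had 43.9 ± 3.07 CPM in Sfmbt RNAi and 44.1 ± 3.45 CPM in mCherry RNAi (SD, n = 3 each), with a log2 fold change of −0.01 ± 0.08 SE.

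Cyclins A, B and B3 bind Cdk1 and act in mitosis and meiosis; in Drosophila cyclin B3 promotes anaphase of the female meiotic divisions. CycB3 (FBgn0015625, 3R:24867934-24870816, minus strand) had 95.1, 122.0 and 137 CPM in Sfmbt RNAi libraries, against 232, 229.9 and 213 CPM in mCherry RNAi libraries. Every Sfmbt RNAi library was lower, replicate 1 most of all (log2 fold change −0.93 ± 0.13 SE, adjusted p by edgeR of 0.00256).

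CycB (FBgn0000405, 2R:22803521-22806948, minus strand) was the most abundant of the 9 genes, with 1616, 1788 and 2019 CPM in Sfmbt RNAi libraries and 2370.3, 2206 and 1994 CPM in mCherry RNAi libraries. The groups overlapped, since Sfmbt RNAi replicate 3 lay above mCherry RNAi replicate 3 (log2 fold change −0.28 ± 0.13 SE, adjusted p by edgeR of 0.131). CycA (FBgn0000404, 3L:11826719-11833578, minus strand) had 787, 835 and 983 CPM in Sfmbt RNAi, against 1143, 1038 and 1009.9 CPM in mCherry RNAi. These groups did not overlap, and the difference missed the threshold (log2 fold change −0.29 ± 0.11 SE, adjusted p by edgeR of 0.0852). Without Sfmbt RNAi replicate 3 it passed (−0.39 ± 0.10 SE, adjusted p by edgeR of 0.0334).

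Cdk1 (FBgn0004106, 2L:10384739-10386262, minus strand), the kinase of division itself, had 119, 121 and 134 CPM in Sfmbt RNAi libraries. The mCherry RNAi libraries held 154, 142 and 159 CPM. The groups were separate by 8.77 CPM, and the gene was called (log2 fold change −0.29 ± 0.08 SE, adjusted p by edgeR of 0.0263). That call was lost without Sfmbt RNAi replicate 1 or 2 or mCherry RNAi replicate 1 or 3 (adjusted p by edgeR of 0.133, 0.0893, 0.0550 and 0.0915). With RLE scaling the edgeR adjusted p was 0.0545.

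Of the Cdc25 phosphatases, String serves most mitoses of the fly, and Twine is the form of the germline, required in meiosis. twe (FBgn0002673, 2L:16259414-16261877, minus strand) had 55.5, 74.8 and 87.9 CPM in Sfmbt RNAi libraries, against 137, 131 and 134 CPM in mCherry RNAi libraries. The Sfmbt RNAi libraries differed most among themselves for this gene, with a coefficient of variation of 22.4% against 2.40% in mCherry RNAi, and all lay below the mCherry RNAi range (log2 fold change −0.88 ± 0.16 SE, adjusted p by edgeR of 0.00615). stg (FBgn0003525, 3R:29251826-29255800, minus strand) had 139, 160.1 and 188 CPM in Sfmbt RNAi libraries, against 235, 224 and 209 CPM in mCherry RNAi libraries. The gap between the groups was 20.8 CPM (log2 fold change −0.46 ± 0.12 SE, adjusted p by edgeR of 0.0230). The call of stg was lost without Sfmbt RNAi replicate 1 or 2 or mCherry RNAi replicate 1 or 2 (adjusted p by edgeR of 0.0754, 0.0666, 0.0531 and 0.0744).

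**Figure D2:**
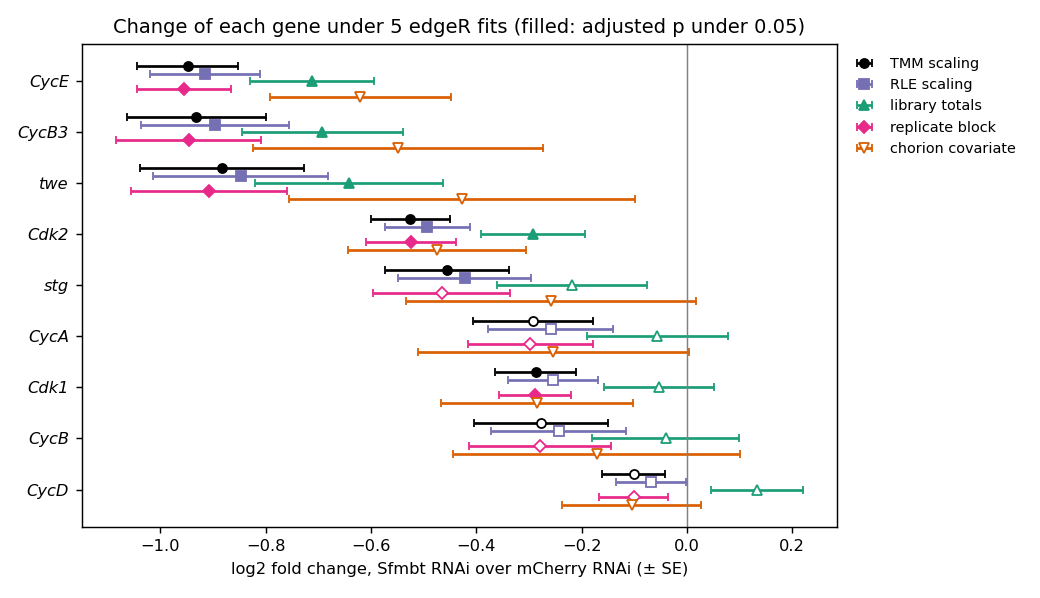
Log2 fold change of each gene, Sfmbt RNAi over mCherry RNAi, with its SE under 5 edgeR fits (n = 3 each; markers are filled where the adjusted p is under 0.05). CycE, CycB3, twe and Cdk2 are filled under all but the chorion covariate, and CycD lies above 0 only with library totals.

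The scale bears on the direction of small differences, and also on whether the libraries of larger ones overlap. With library totals in place of TMM the median log2 fold change of all tested genes was 0.23 higher, the log2 fold changes of CycA, CycB and Cdk1 were −0.06, −0.04 and −0.05, and 4 genes were called, CycE, CycB3, Cdk2 and twe. In the authors' deposited table the mean TPM (a level scaled for length and depth) of CycB is 955 in Sfmbt RNAi and 911 in the control, and that of CycB3 is 54.8 in Sfmbt RNAi and 86.8 in the control. The same table gives log2 fold changes of −0.26 for CycB and −0.995 for CycB3, with adjusted p-values of 0.0741 and 4.65e-10. For CycB the mean TPM and the log2 fold change of the authors' deposited table thus point in opposite directions. When TPM was computed from the counts used here, the mean was higher in Sfmbt RNAi for CycA, CycB, CycD and Cdk1. It was lower for CycB3, CycE, Cdk2, stg and twe. Cdk1, called lower above, had 201, 205 and 260 TPM in Sfmbt RNAi libraries, against 220, 185 and 212 TPM in mCherry RNAi libraries. The TPM groups also overlapped for CycA, CycB, stg, Cdk2 and twe. Cdk2 had 51.3, 55.7 and 63.0 TPM in Sfmbt RNAi libraries, against 70.3, 56.6 and 59.3 TPM in mCherry RNAi libraries. For twe these were 42.7, 57.7 and 77.7 TPM against 88.9, 77.1 and 81.4 TPM. CycD was higher in every Sfmbt RNAi library, at 88.0 to 106 TPM against 72.3 to 82.8 TPM. Only CycE and CycB3 were lower in every Sfmbt RNAi library.

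Levels were compared between genes per kilobase of exon. In Sfmbt RNAi the order was CycB, CycA, Cdk1, stg, CycD, CycB3, twe, Cdk2 and CycE, at 593 ± 66.3, 297 ± 35.0, 115 ± 7.47, 52.99 ± 8.18, 49.1 ± 1.37, 40.9 ± 7.36, 30.6 ± 6.86, 29.4 ± 1.26 and 27.4 ± 3.22 CPM per kilobase (SD, n = 3). Neighbours with overlapping ranges were stg and CycD, CycB3 and twe, twe and Cdk2, and Cdk2 and CycE. In mCherry RNAi the order was CycB, CycA, Cdk1, CycB3, stg, twe, CycE, CycD and Cdk2, at 719 ± 61.9, 364 ± 24.1, 140.4 ± 7.90, 78.1 ± 3.70, 72.7 ± 4.25, 56.4 ± 1.35, 52.8 ± 0.306, 52.6 ± 1.05 and 42.4 ± 2.80 CPM per kilobase (SD, n = 3). There the overlapping neighbours were CycB3 and stg, and CycE and CycD. The first 3 places were the same in both groups; CycE stood last in Sfmbt RNAi and seventh in mCherry RNAi, a change of place that was not tested.

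Ratios taken inside a library do not depend on how libraries are scaled, so 5 pairs of related genes were compared in that way, per kilobase. The CycD over CycE ratio was 2.03, 1.68 and 1.71 in Sfmbt RNAi libraries, against 1.02, 0.970 and 0.996 in mCherry RNAi libraries. Per kilobase of annotated exon the 2 G1 cyclin genes were thus near parity in mCherry RNAi ovaries, and CycD exceeded CycE in each Sfmbt RNAi library. Before division by exon length (2453 bases for CycD, 5047 for CycE), CycE had more CPM than CycD in every library. The lengths of the transcripts made in these ovaries were not measured. The CycB3 over CycB ratio was 0.0622, 0.0721 and 0.0717 in Sfmbt RNAi and 0.104, 0.110 and 0.113 in mCherry RNAi. The CycB3 over CycA ratio was 0.122, 0.148 and 0.141 in Sfmbt RNAi and 0.206, 0.224 and 0.213 in mCherry RNAi. Of the summed per-kilobase level of the 3 mitotic cyclin genes, CycB3 made up 4.37 ± 0.360% in Sfmbt RNAi and 6.73 ± 0.246% in mCherry RNAi (SD, n = 3).

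The twe over stg ratio was 0.516, 0.602 and 0.600 in Sfmbt RNAi and 0.751, 0.753 and 0.827 in mCherry RNAi. The Cdk2 over Cdk1 ratio was 0.255, 0.272 and 0.242 in Sfmbt RNAi and 0.320, 0.307 and 0.280 in mCherry RNAi. The groups did not overlap in any of the 5 pairs. Each pair holds a gene called lower above, so this separation is not independent of those calls. Of single tested genes 50.3% separated in either direction, and the share over other gene pairs was not computed. The mean log2 ratios differed by 0.85 for CycD over CycE, −0.67 for CycB3 over CycB, −0.65 for CycB3 over CycA, −0.44 for twe over stg and −0.24 for Cdk2 over Cdk1. Each gave p = 0.1 in an exact two-sided permutation test (n = 3 each), the smallest p that 3 against 3 allows, and 0.1 after adjustment over the 5 pairs.

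**Figure D3:**
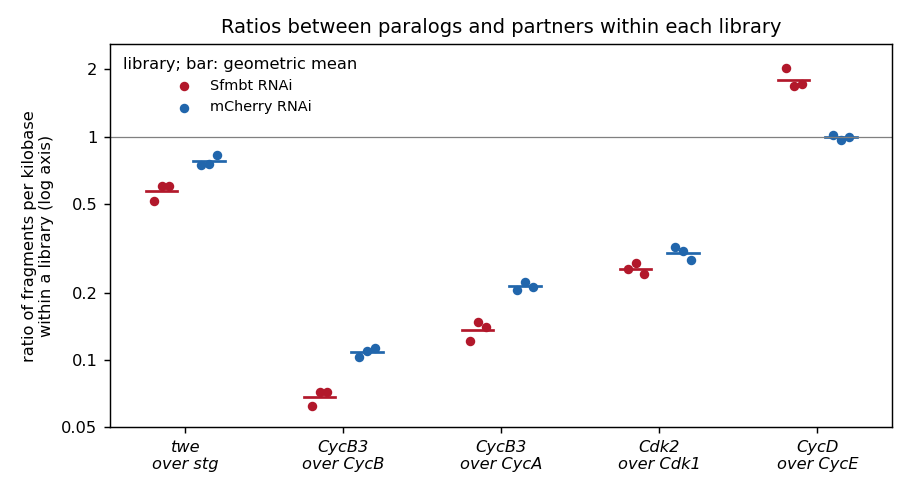
Ratios of fragments per kilobase between related genes within each library, on a log axis, with Sfmbt RNAi libraries to the left of mCherry RNAi libraries and a bar for the geometric mean (n = 3 each). The points of the groups do not overlap in any pair, and CycD over CycE is 1.68 or more in Sfmbt RNAi and 1.02 or less in mCherry RNAi.

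The Sfmbt RNAi libraries differed among themselves in the same way for nearly all of the genes. All 9 genes were lowest in replicate 1 and 8 of 9 were highest in replicate 3, whereas replicate 1 was the lowest Sfmbt RNAi library for 39.0% of tested genes and replicate 3 the highest for 36.5%. Summed CPM of 8 muscle sheath markers were 1671, 1313 and 537 in Sfmbt RNAi libraries, against 1025, 1378 and 1068 in mCherry RNAi libraries. Those of 5 genes listed as fat body markers were 9146, 7899 and 5298 in Sfmbt RNAi, against 4884, 5929.7 and 5124 in mCherry RNAi. That list includes the yolk protein gene Yp1, which follicle cells also express, so its sum does not measure fat body alone. Among the Sfmbt RNAi libraries both sums were highest in replicate 1 and lowest in replicate 3, and neither list had a gene called between the groups. Follicle cell markers ran in the same order, at 550.4, 511 and 431 CPM in Sfmbt RNAi replicates 1 to 3. So did hemocyte markers, at 59.3, 44.0 and 19.1 CPM. The sum of germline markers was also highest in replicate 1 but lowest in replicate 2, at 2286, 1975 and 2047 CPM in Sfmbt RNAi. Sums of chorion, vitelline membrane and gut enzyme genes did not run in that order. The part of these lists in the spread of the 9 genes was not tested.

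Late follicle cell transcripts moved with the groups. Summed CPM of 9 chorion genes, which follicle cells express late in egg development, were 7547, 20193 and 12881 in Sfmbt RNAi libraries, against 35271, 50569.6 and 45373 in mCherry RNAi libraries, and 9 of 9 were called lower. Over all tested genes 19.4% were called lower. In whole ovaries, fewer cells of a type and less RNA per cell cannot be told apart. With the log2 chorion sum as a covariate 0 of the 9 genes were called by edgeR, 2 had an unadjusted p under 0.05, and all 9 log2 fold changes stayed negative. The standard errors of the 9 genes were then 1.78 to 2.36 times as large, and the log2 fold changes of CycE, CycB3, twe and Cdk2 were −0.62 ± 0.17, −0.55 ± 0.28, −0.43 ± 0.33 and −0.48 ± 0.17 (SE). The covariate itself differed between the groups.

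Germline and follicle cell markers were both present in every library, as a whole ovary should hold. Of 8 germline markers 4 were called higher and 1 lower, where 15.2% of all tested genes were higher and 19.4% lower. Their sum was 1975 to 2286 CPM in Sfmbt RNAi and 1626 to 2028 CPM in mCherry RNAi. Of 6 follicle cell markers 1 was called lower, with sums of 431 to 550.4 CPM in Sfmbt RNAi and 456 to 523 CPM in mCherry RNAi. The 7 vitelline membrane genes had 0 called, with sums of 8122 to 12204 CPM in Sfmbt RNAi and 9475 to 12303 CPM in mCherry RNAi. The 5 hemocyte markers summed to 19.1 to 59.3 CPM in Sfmbt RNAi and 24.7 to 35.2 CPM in mCherry RNAi, with 0 called of 4 tested. The 13 gut enzyme genes, of which 1 had no fragment in any library, summed to 1.01 to 171 CPM in Sfmbt RNAi and 207 to 2114 CPM in mCherry RNAi, with 0 called of 11 tested. The gut enzyme sums thus did not overlap between the groups either, and their part in the results was not tested.

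Of 76 further cell cycle genes listed by role 75 were tested: 23 fell and 6 rose, and their median log2 fold change was −0.07. Over all 9667 tested genes 19.4% were called lower and 15.2% higher, with a median of −0.04. With library totals 12 of the listed genes were lower and 21 higher, against 879 lower and 3012 higher over all tested genes, so the balance of directions depends on the scaling. The calls of Cdk5, E2f2, aurA, grp, mad2 and Bub3, named below by role, were lost with library totals, at log2 fold changes of −0.23, −0.16, −0.27, −0.22, −0.27 and −0.01 (adjusted p by edgeR of 0.0593, 0.264, 0.116, 0.112, 0.206 and 0.936). Among 17 other cyclin, Cdk and Cks genes 3 fell and 2 rose, shares near those over all tested genes. CycC, of the Mediator kinase module, Cdk5, and Cks30A, a Cks subunit that Drosophila needs in female meiosis, had log2 fold changes of −0.61 ± 0.08, −0.46 ± 0.07 and −0.77 ± 0.12 (SE; adjusted p by edgeR of 0.00181, 0.00310 and 0.00379). CycJ, a cyclin expressed mostly in ovaries, rose: it had 68.8, 66.6 and 71.6 CPM in Sfmbt RNAi libraries, against 45.7, 37.4 and 36.4 CPM in mCherry RNAi libraries (log2 fold change 0.79 ± 0.10 SE, adjusted p by edgeR of 0.00153). Cdk9, the kinase of transcription elongation, rose by less (0.30 ± 0.07 SE, adjusted p by edgeR of 0.0170), a call lost without mCherry RNAi replicate 2 or 3 (0.0790 and 0.0559).

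Where 34.7% of all tested genes were called, the list of Cdk inhibitors and inhibitory kinases had 1 of 5 genes called. This was mtrm, whose product binds and inhibits Polo kinase in the oocyte and is no inhibitor of a Cdk. It had 115, 152 and 162 CPM in Sfmbt RNAi libraries, against 382, 361 and 390.4 CPM in mCherry RNAi libraries (log2 fold change −1.40 ± 0.13 SE, adjusted p by edgeR of 0.000513). The inhibitor genes dap and rux and the inhibitory kinase genes Wee1 and Myt1 had log2 fold changes of 0.18, −0.07, −0.20 and −0.13 (adjusted p by edgeR of 0.0514, 0.614, 0.0558 and 0.207).

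The anaphase-promoting complex (APC/C) ends mitosis and meiosis by marking cyclins for destruction. Of 16 tested genes of this complex and related ubiquitin ligases 6 fell and 1 rose, where 19.4% of all tested genes were lower and 15.2% higher. The falls with the smallest p were in the activator genes cort and fzy and the regulator gene Rca1. The activator gene fzr was not called (log2 fold change 0.20 ± 0.07 SE, adjusted p by edgeR of 0.0724). It had 77.8, 74.5 and 79.0 CPM in Sfmbt RNAi libraries, against 70.3, 61.9 and 69.4 CPM in mCherry RNAi libraries. cort, the activator specific to female meiosis, had 24.8, 31.1 and 33.6 CPM in Sfmbt RNAi libraries, against 74.1, 66.2 and 70.6 CPM in mCherry RNAi libraries (log2 fold change −1.24 ± 0.12 SE, adjusted p by edgeR of 0.000513). fzy, the Cdc20 of the fly, and Rca1, which inhibits the activator Fzr, had log2 fold changes of −1.14 ± 0.15 and −0.98 ± 0.14 (SE; adjusted p by edgeR of 0.00210 and 0.00303). shtd, which encodes a scaffold subunit, rose (0.50 ± 0.12 SE, adjusted p by edgeR of 0.0157), a call lost without mCherry RNAi replicate 2 or 3 (0.0716 and 0.0675).

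Among 10 genes of G1/S transcription 4 fell and 1 rose, where 19.4% of all tested genes were lower and 15.2% higher. Rbf2, a retinoblastoma family gene, lin-52, of the Myb-MuvB complex, and E2f2 had log2 fold changes of −0.85 ± 0.11, −0.73 ± 0.09 and −0.39 ± 0.08 (SE; adjusted p by edgeR of 0.00201, 0.00133 and 0.00980). Myb rose (0.25 ± 0.08 SE, adjusted p by edgeR of 0.0393), and lost its call when any 1 library but mCherry RNAi replicate 1 was left out (0.0514 to 0.151). Of 12 mitotic kinase and phosphatase genes 4 fell and 0 rose; aurB, borr and aurA, which encode the Aurora B kinase, its partner Borealin and the Aurora A kinase, had log2 fold changes of −0.99 ± 0.14, −0.85 ± 0.13 and −0.51 ± 0.10 (SE).

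Of 12 checkpoint genes 3 fell and 2 rose, where 19.4% of all tested genes were lower and 15.2% higher. grp, which encodes the Chk1 kinase, had a log2 fold change of −0.45 ± 0.07, and the spindle checkpoint genes mad2 and Bub3 −0.51 ± 0.14 and −0.24 ± 0.07 (SE). mei-41, which encodes the ATR kinase, and p53 rose, with log2 fold changes of 0.47 ± 0.08 and 0.68 ± 0.10 (SE; adjusted p by edgeR of 0.00505 and 0.00251). The call of mad2 was lost without any 1 of 4 libraries, Sfmbt RNAi replicate 2 or any mCherry RNAi replicate (adjusted p by edgeR of 0.0553 to 0.0702), and that of Bub3 without any 1 library but Sfmbt RNAi replicate 3 (0.0565 to 0.113). Of the 3 subunit genes of the PNG kinase, which promotes translation of cyclin B mRNA at egg activation, gnu and plu fell and png was not called. gnu had 151, 168 and 163 CPM in Sfmbt RNAi libraries, against 288, 306 and 319.8 CPM in mCherry RNAi libraries (log2 fold change −0.92 ± 0.08 SE, adjusted p by edgeR of 0.000309). plu and png had log2 fold changes of −0.78 ± 0.07 and −0.25 ± 0.14 (SE; adjusted p by edgeR of 0.000504 and 0.202).

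**Figure D4:**
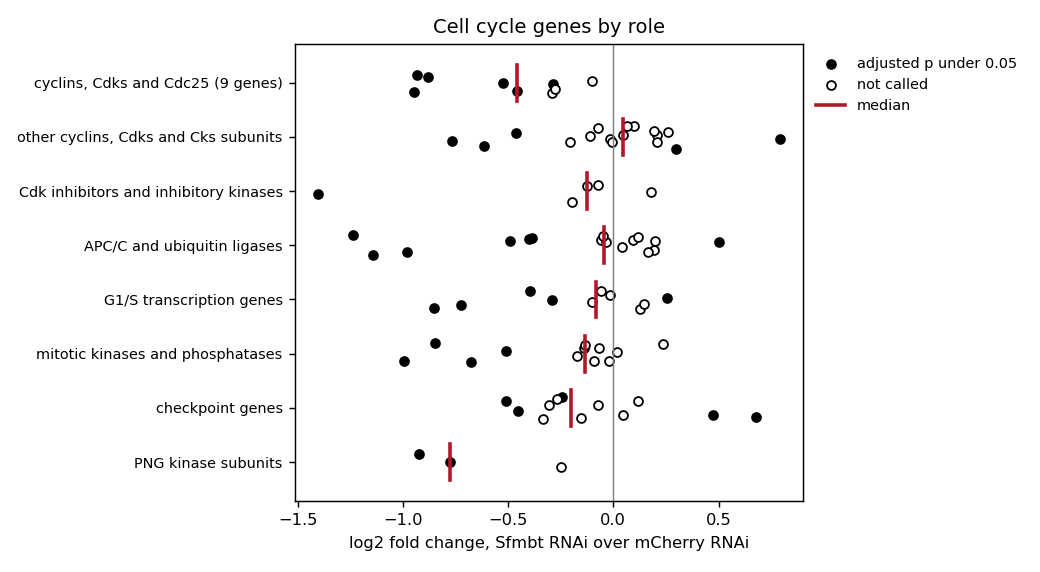
Log2 fold change, Sfmbt RNAi over mCherry RNAi, of the 9 genes and of 75 tested cell cycle genes by role (n = 3 each); filled points have an edgeR adjusted p under 0.05 and red bars mark medians. The median of the 9 genes is −0.46. Medians of the other lists run from −0.78 for the PNG kinase subunits to 0.05 for other cyclins, Cdks and Cks subunits.

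The genes whose pattern was most like that of CycE, by Pearson's r of log2 CPM over the 6 RNA libraries, were searched among 6623 other genes with a mean of 10 CPM or more. They were Orc1 (r = 0.9999), dup (0.9997) and CG4267 (0.9995). Orc1 encodes a subunit of the origin recognition complex and dup the fly Cdt1, which loads the replicative helicase. Orc1 had 48.9, 65.7 and 68.4 CPM in Sfmbt RNAi libraries, against 164, 163 and 165 CPM in mCherry RNAi libraries, and dup had 80.5, 99.7 and 103 CPM in Sfmbt RNAi, against 196, 192 and 196 CPM in mCherry RNAi. Both repeat the shape of CycE, with near-equal mCherry RNAi libraries and the lowest value in Sfmbt RNAi replicate 1. Between the 9 genes r was 0.800 to 0.992 over 36 pairs. All points share the 6 libraries and the difference between the groups, so these values describe the pattern.

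PhoRC binding was read from the authors' list of 352 summits at 289 genes. Of the 9 genes 2 have a summit in it, CycB with 2 and CycB3 with 1; 1.61% of all genes in the count table have one, as do 4 of the 76 further cell cycle genes. The CycB3 summit lies at 3R:24870492-24870493, inside the gene and in exon sequence, 323 bases downstream of the gene's start. The CycB summits lie at 2R:22806307-22806308 and 2R:22806539-22806540, also inside the gene, 640 bases (exonic) and 408 bases (intronic) downstream of its start. No other gene of the annotation covers them; the nearest other gene starts are those of Elal, 5143 bases from the CycB3 summit, and stl, 1552 and 1320 bases from the CycB summits. The remaining 7 genes have no summit in the list.

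Signal in RPM, reads scaled to the depth of the library, is the authors' own value, 1 per summit and ChIP group, so no replicate error can be given. At the CycB3 summit it was 4.52 RPM for Pho and 1.15 RPM for GFP-Sfmbt, against 0.504 RPM for untagged chromatin. At the first CycB summit it was 6.40 RPM for Pho and 0.871 RPM for GFP-Sfmbt, against 0.210 RPM for untagged chromatin, and at the second 3.64 RPM for Pho and 0.428 RPM for GFP-Sfmbt, against 0.210 RPM for untagged chromatin. GFP-Sfmbt was thus 2.27, 4.15 and 2.04 times the untagged value, where the median over the list was 2.73 and 67.6% of summits reached 2 times. The values are whole multiples of a step, and the untagged ones rest on 12, 5 and 5 steps, so these ratios are coarse.

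By the authors' mean rank the CycB3 summit had a value of 147 and the CycB summits 151.5 and 276 in the list of 352. Their Pho signals lay around the median of the list, 4.52 RPM, and far under its highest value, 125 RPM. The gene with the larger fall, CycB3, had 1 summit and CycB, which was not called, had 2. Of the further cell cycle genes, CycT, mts, Rbf2 and wdb have a summit, and of these Rbf2 was called lower; at its summit GFP-Sfmbt and untagged chromatin had equal signal, 0.504 RPM each.

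**Figure D5:**
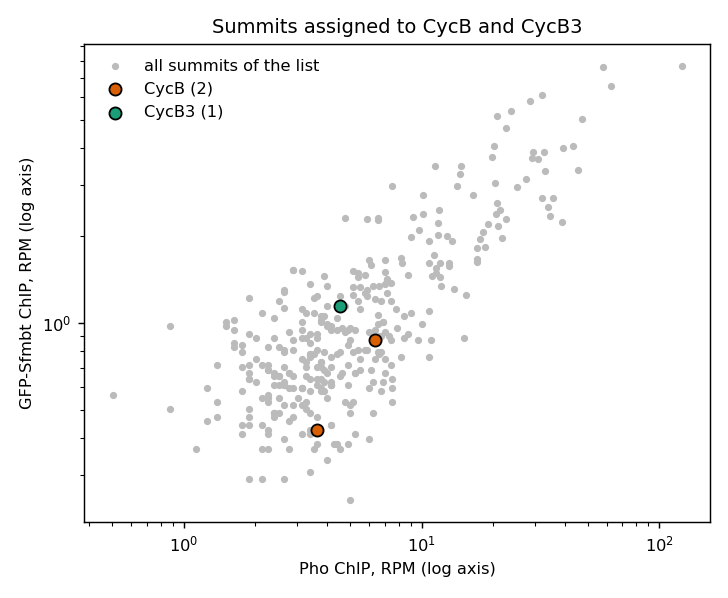
Pho signal against GFP-Sfmbt signal at the 352 summits of the authors' list, both in RPM on log axes, with 1 value per summit and group. The CycB3 summit (4.52 and 1.15 RPM) and the CycB summits (6.40 and 0.871, 3.64 and 0.428 RPM) lie among the many summits of moderate signal, with the CycB3 summit above and the CycB summits below the list's median GFP-Sfmbt signal of 0.886 RPM.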

How the data were processed

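The deposited counts are raw fragments per gene that the authors made (featureCounts 1.6.3, reverse-stranded pairs, after STAR 2.7.2a; gene model BDGP6.28, Ensembl release 101), per the file headers and processing notes. The columns carry letters: C was taken as the control, the labels' word for mCherry RNAi, and A, by elimination, as Sfmbt RNAi, with their numbers as replicate numbers. Checked afterwards against the authors' mean TPM, 91 of 94 genes under their threshold moved in the same direction. Per summit the deposited table holds the authors' RPM for each kind of ChIP library and rank scores, and per gene their log2 fold change, adjusted p-value and mean TPM; the sources used here do not give its peak caller, its RPM window or how replicates were combined. Build BDGP6 serves for all coordinates.

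The 6 RNA libraries entered edgeR 4.0.16 (R 4.3.3; filterByExpr, minimum count 10; TMM; robust quasi-likelihood fit on group alone; Benjamini-Hochberg at 0.05). CPM are TMM-normalised, and each SE was taken from the F statistic. Alternatives were RLE and total scaling, DESeq2 1.42.0, 2 other filters, a replicate block, a chorion covariate and each library left out. Ratios were tested by exact permutation (scipy 1.17.1). Replicates all differed by more than sampling noise. The genes and lists were chosen with earlier results of these data known. From each list of cell cycle genes, up to 3 higher and 3 lower calls with the smallest adjusted p are named. All 146 listed symbols were matched, 2 by another spelling; 17671 of 17768 gene IDs have a symbol.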

Additional observations from a re-analysis of the deposited data

How the results depend on the processing

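Over all tested genes 3350 were called, 1880 lower and 1470 higher; with library totals the split was 879 and 3012. Leaving out 1 library gave 1756 to 3295 genes called (1756 and 1931 without mCherry RNAi replicate 2 and 3), 4 to 7 of the 9 genes lower and 0 higher, and 18 to 26 further cell cycle genes lower and 3 to 10 higher. The chorion covariate gave 118 genes called, 0 of the 9 genes lower, and 0 further cell cycle genes lower and 0 higher by edgeR (7 and 1 at an unadjusted p under 0.05); over all genes its standard errors were 2.20 times as large at the median. Further cell cycle genes called lower were 12 with library totals, and those called higher were 21 with library totals, 10 with RLE scaling, 11 with a filter at 1 CPM in 3 libraries and 11 with DESeq2, against 23 and 6. CycD was at 0.13 on the log2 scale with library totals. Of the members with a summit, 1 has one above the median of the list by GFP-Sfmbt RPM. Apart from the constructions named (fewer samples, fewer genes, a term that differs between groups), the cause was not tested. Over the settings the 5 log2 ratios differed by 0.77 to 0.90 for CycD over CycE, −0.70 to −0.60 for CycB3 over CycB, −0.71 to −0.57 for CycB3 over CycA, −0.48 to −0.37 for twe over stg and −0.29 to −0.19 for Cdk2 over Cdk1. Their directions could not change in these settings. Groups that do not overlap keep their order when 1 library is left out. Counts without length shift both groups nearly alike, and the block leaves the mean difference as it was.

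Same-numbered libraries did not all deviate together from their group means (correlations across genes of 0.324, 0.335 and −0.0907 for numbers 1 to 3). Among the Sfmbt RNAi libraries replicate 1 alone correlated more with its own number than with the others. Deviations from a mean of 3 libraries depend on each other, so these values cannot settle whether same-numbered libraries share a batch. The main fit did not treat them as pairs. With the replicate block 2959 genes were called, 5 of the 9 genes lower, and 20 further cell cycle genes lower and 5 higher; stg was not called (edgeR adjusted p = 0.0528). With the block the ratios differed by the same amounts, with an exact sign-flip p of 0.25, the smallest that 3 pairs allow. The lowest count of any of the 9 genes was 2082 fragments in a library, so depth limits the RNA values little; the ChIP values have no replicate spread.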
